A study of Bos taurus with 8 samples.

Results

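The genes described here code for the proteins that remove introns from messenger RNA and package the nascent transcript. They were taken as every bovine gene whose symbol begins with HNRNP, SRSF, SNRP, SF3A, SF3B or U2AF, found through the accession of each non-control probe on a bovine Agilent array. The rule gave 154 probes of 51 genes, out of 43653 probes and 12639 named genes. By family these were 69 probes of 18 HNRNP genes, 28 probes of 9 SRSF genes, 26 probes of 12 SNRP genes, 4 probes of 3 SF3A genes, 20 probes of 6 SF3B genes and 7 probes of 3 U2AF genes. The RNA came from cells labelled as neutrophils in jugular vein blood of periparturient female Holstein Friesian cows, with no treatment named. Before-calving samples (C-14) were drawn on day -14 relative to the expected calving date, and after-calving samples (C+7) on day 7 relative to the actual date. Each time point has 4 single-colour (Cy3) arrays, while the design names 3 cows, without saying which cow gave which array. P-values over arrays therefore measure the spread between these arrays, part of which may be technical.

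An intron is removed by the spliceosome, a machine of small nuclear RNAs and proteins that assembles anew on each intron. The SNRP genes code for proteins of its small nuclear ribonucleoprotein particles, including the Sm proteins that ring the small nuclear RNAs. The U2AF proteins mark the 3′ splice site, and the SF3A and SF3B proteins belong to the U2 particle that then engages the branch point. SR proteins, coded by the SRSF genes, mostly bind exons and favour the use of nearby splice sites, whereas hnRNP proteins coat nascent transcripts and often repress splice sites. Blood neutrophils are short-lived granulocytes with a low RNA content. In bulk RNA such as this, fewer cells of a type and less RNA per cell cannot be told apart.

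Signal was low on every array, and this sets what can be said of these genes. Probes well above background, a call that the extraction software makes for each spot, numbered 780 to 4493 per array before calving and 390 to 2759 after. Replicate 4 of each time point was the dimmest (780 and 390 probes), and the other 6 arrays had at least 2225. Before-calving replicate 3, the array with the most detected probes, also carried a multiplicative surface correction in its processed signal, which no other array had. The arrays before calving were on one slide and those after calving on another, scanned separately, so effects of slide or scan and of time cannot be told apart. Of the 13 neutrophil markers 12 had a probe and 9 were detected. S100A8, MPO and CD177 were not well above background on any of the 6 brighter arrays, and CSF3R had no probe named here.

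Of the 51 splicing genes, 35 (68.6%) had a probe well above background on at least 1 of the 8 arrays, against 32.4% of the 12588 other named genes. Splicing genes had 3.02 probes each and the others 2.12, so the gene shares are not over equal numbers of probes. By probe, 53 of 154 (34.4%) were detected, against 19.1% of the 26678 probes of other named genes and 17.0% of all probes. These shares are a description and were not tested. Of those 53 probes, 19 were detected on a single array, 10 on 2 arrays, 19 on 3 to 5 arrays, 4 on 6 arrays and 1 on all 8. That last probe reads U2AF2, which codes for the larger U2AF subunit. Probes of a gene often differed: among the 117 probes of the 35 detected genes, 64 were not detected on any array. All probes were detected for 6 genes, but 5 of them have a single probe, and the sixth is SF3B2.

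The 16 genes without any detected probe came from every family. They were 7 of the 12 SNRP genes (SNRPA, SNRPA1, SNRPB, SNRPB2, SNRPC, SNRPD1 and SNRPF), 4 HNRNP genes (HNRNPD, HNRNPL, HNRNPLL and HNRNPU), SF3A1, SF3B3, SF3B6, SRSF9 and U2AF1L4. The SNRP genes in that group include the U1 particle proteins SNRPA and SNRPC and the U2 particle proteins SNRPA1 and SNRPB2. Detected SNRP genes were 5 of 12, against 32.4% of other named genes. By probe the detected share was 19.2% for SNRP and 19.1% for other named genes, so this family did not lie below the array. Not being well above background sets only an upper bound on a transcript at these intensities, and the differences in share between families were not tested.

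More splicing probes were detected before calving than after, as was the case for the whole array. On before-calving arrays 1 to 4, 31, 17, 44 and 2 of the 154 probes were well above background (20.1%, 11.0%, 28.6% and 1.30%). On after-calving arrays 1 to 4 there were 12, 13, 21 and 2 (7.79%, 8.44%, 13.6% and 1.30%). Array 2 before calving overlapped the after-calving range, and replicate 4 of both times held almost none. Of the 53 detected probes, 35 (66.0%) were detected on more arrays before calving than after, 8 on equally many and 10 on more after calving. The share among all 7404 detected probes of the array was 61%, so the splicing probes as a whole lay near the background. Without before-calving replicate 3, counting the share of each time point's arrays, 25 of 42 detected splicing probes (59.5%) were found more often before calving, against 56.1% of all detected probes.

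**Figure D1:**
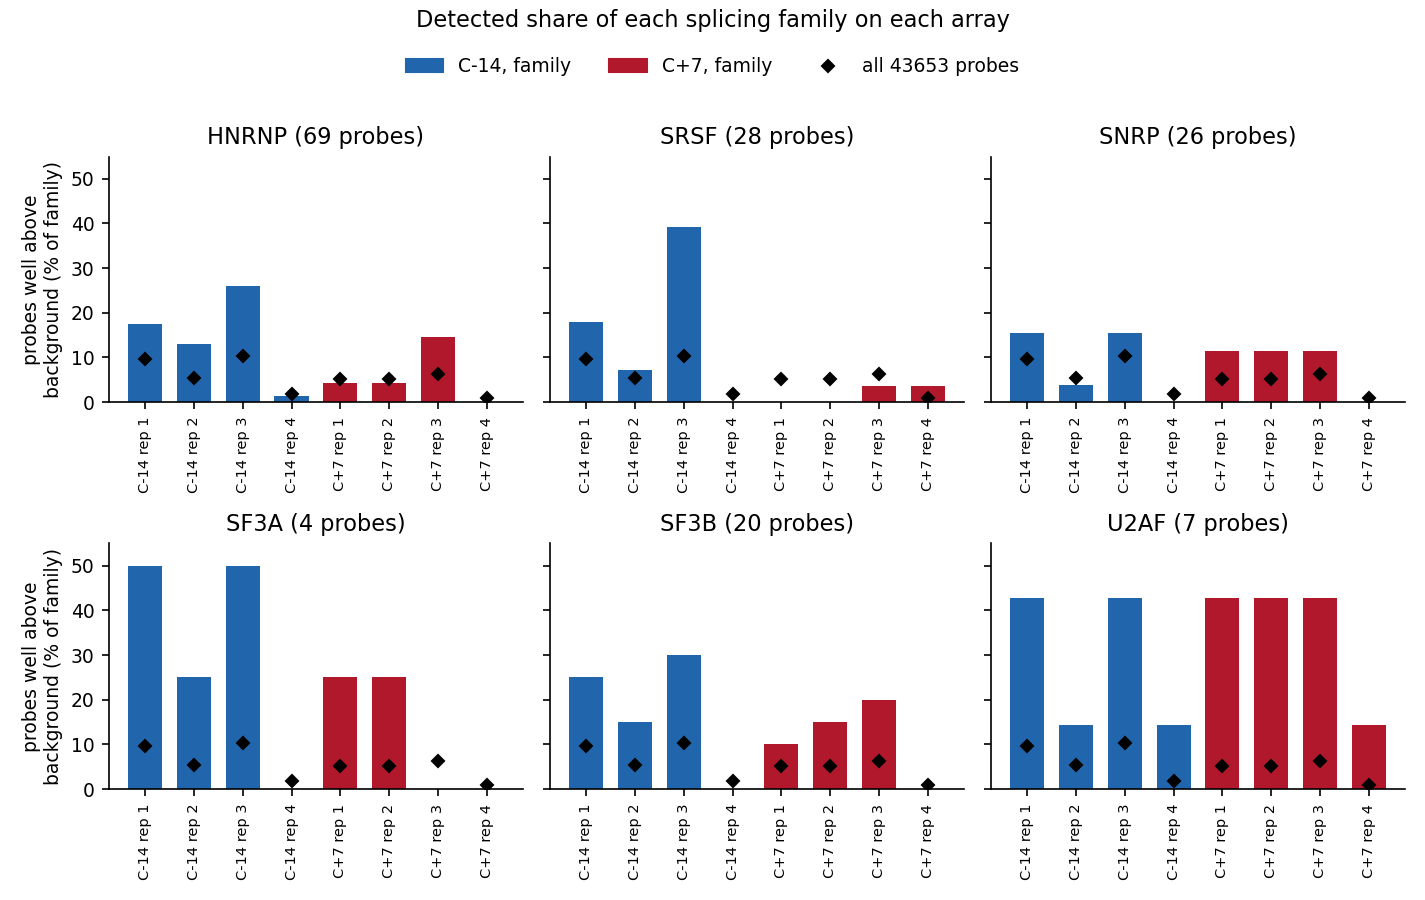
Percent of each family's probes that were well above background (vertical axis) on each of the 8 arrays, blue bars for C-14 and red bars for C+7, with black diamonds for all 43653 probes. SRSF bars reach 39.3% on C-14 replicate 3 and are at 0 or 3.57% on the C+7 arrays. U2AF bars stand at 42.9% on C-14 replicates 1 and 3 and on C+7 replicates 1 to 3, and at 14.3% on the rest.

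The families differed in how their detected probes were spread over the times. SRSF probes were detected mainly before calving, the direction of the array as a whole. SRSF probes numbered 5, 2, 11 and 0 on the before-calving arrays and 0, 0, 1 and 1 on the after-calving arrays. Of 12 detected SRSF probes, 11 (91.7%) were on more arrays before calving, against 61% of all detected probes. The single exception was a probe of SRSF5 seen on after-calving replicate 4 alone. Of those 12, 6 were detected on before-calving replicate 3 and nowhere else (SRSF1, SRSF4, SRSF5, SRSF6, SRSF10 and a second probe of SRSF11). Over the whole array this held for 1124 of 7404 detected probes. Without before-calving replicate 3, 5 of 6 detected SRSF probes were found more often before calving, against 56.1% of all detected probes.

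HNRNP probes leaned the same way in number, with 12, 9, 18 and 1 detected before calving and 3, 3, 10 and 0 after. Of the 24 detected HNRNP probes, 18 (75.0%) were on more arrays before calving and 5 on more after. Without before-calving replicate 3 the split was 14 of 20 against 6. After-calving array 3 had 10 probes and before-calving array 2 had 9. Among those 10 was a probe of HNRNPDL whose spot there was flagged and left out of the signals. These families were not tested against the other probes, whose share in the same direction was 61%.

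The core particle families were smaller and did not share 1 pattern. SNRP probes numbered 4, 1, 4 and 0 before calving and 3, 3, 3 and 0 after. SF3B probes numbered 5, 3, 6 and 0 before and 2, 3, 4 and 0 after, with 3 probes on more arrays before calving, 4 on equally many and 0 on more after. U2AF probes numbered 3, 1, 3 and 1 before and 3, 3, 3 and 1 after, with none on more arrays before calving. SF3A, with 4 probes in all, had 2, 1, 2 and 0 before and 1, 1, 0 and 0 after, and both of its detected probes were on more arrays before calving. Among all detected probes, 61% were on more arrays before calving and 21.7% on more after. Without before-calving replicate 3, by the share of each time point's arrays, 2 SF3B probes were found more often before and 4 after. SNRP then had 2 and 3, while U2AF and SF3A kept their counts. The shares among all detected probes were then 56.1% and 42.0%.

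Since some arrays detect more probes than others, the families were also counted among an equal number of brightest probes, 2225 on each of the 6 brighter arrays. On the before-calving arrays 1 to 3 this top group held 15, 16 and 18 splicing probes, and on the after-calving arrays 1 to 3 it held 12, 12 and 16. The overall gap was thus smaller than in the detection calls, and the times overlapped. SRSF probes in the top group numbered 0, 2 and 4 before calving and 0 on each after-calving array. HNRNP probes numbered 7, 8 and 5 before and 3, 3 and 8 after, so array 3 after calving reached the highest before-calving count. SNRP probes numbered 1, 1 and 3 before and 3, 3 and 2 after, and U2AF probes 3, 1 and 2 before and 3, 3 and 3 after. SF3B probes numbered 3, 3 and 3 before and 2, 3 and 3 after, and SF3A probes 1, 1 and 1 before and 1, 0 and 0 after.

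**Figure D2:**
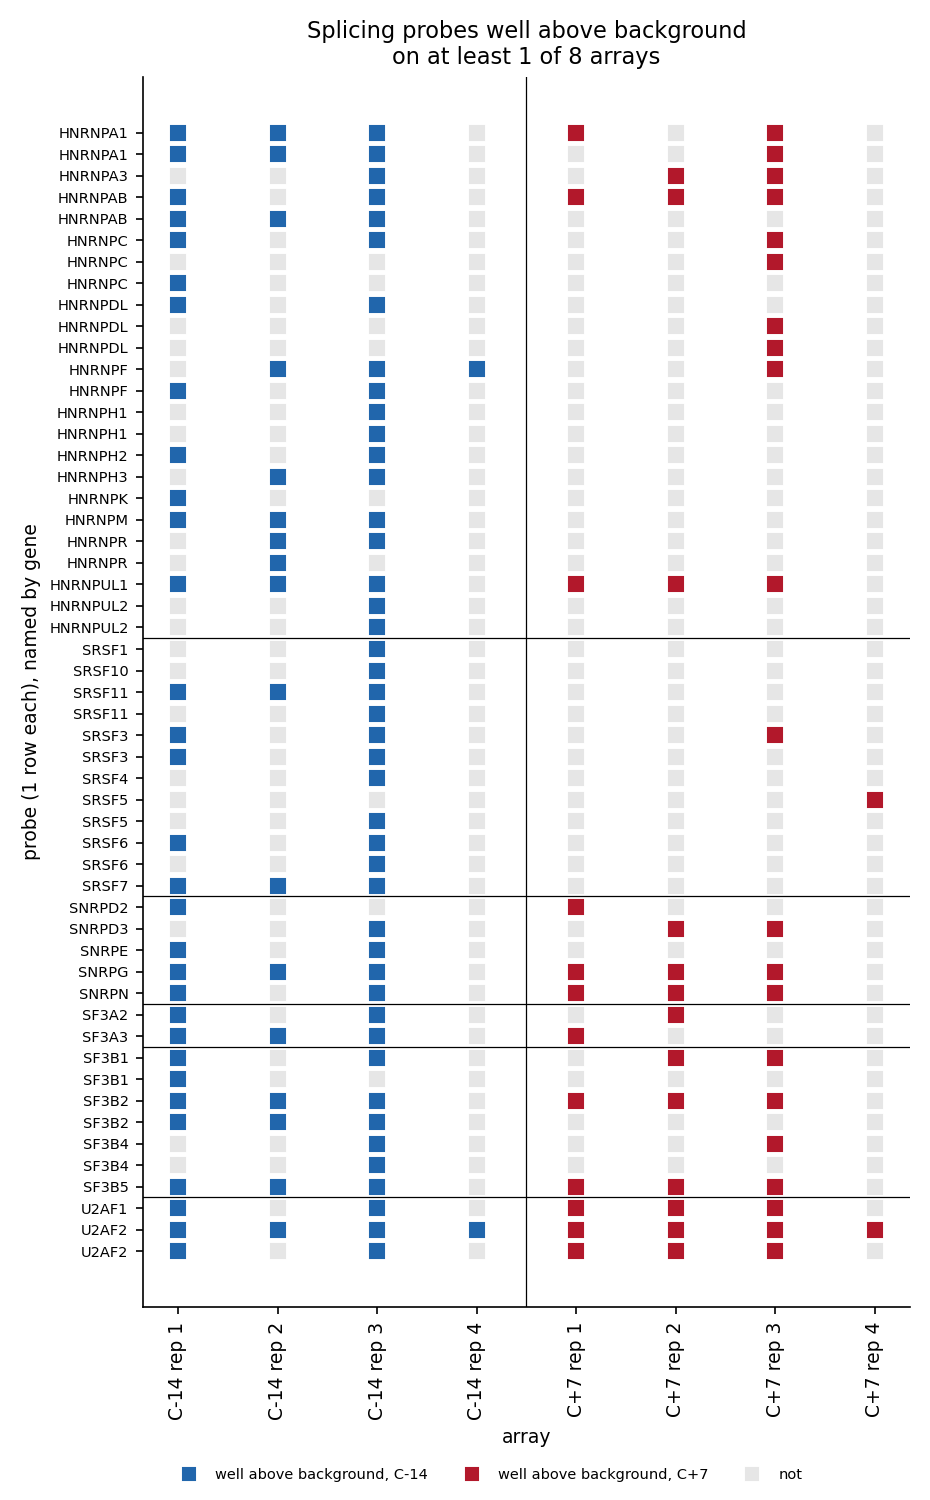
Each row is a splicing probe that was well above background on at least 1 array, named by its gene and grouped by family, and each column is an array. Filled squares mark detection (blue C-14, red C+7) and grey squares its absence; SRSF rows are filled almost only on the C-14 side, and 1 U2AF2 row is filled on all 8 arrays.

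Detection on all 3 brighter arrays of a time point, and on none of the 3 of the other, was also counted. It was met before calving by 5 (9.62%) of the 52 splicing probes detected on these arrays, and by 273 (3.89%) of the 7017 probes of the whole array detected there. The 5 were SRSF7, SRSF11, HNRNPM, 1 of the probes of HNRNPAB and 1 of SF3B2. These shares were not tested. The reverse was met by 0 splicing probes and by 21 (0.299%) of the whole array. Intensities of the 5 splicing probes lay close to the detection limit, as the values of each gene show. The lowest detected log2 level, scaled as below, was -4.58, -3.80 and -5.44 on before-calving arrays 1 to 3. On after-calving arrays 1 to 3 it was -3.94, -3.78 and -3.54. A lower level could thus be detected before calving and a higher one not after. HNRNPM was detected at -5.43 on before-calving array 3 and not at -4.06 on after-calving array 3. Of the 52 splicing probes detected on the 6 arrays, 5 (9.62%) were detected on all 6, against 15.8% of the detected probes of the whole array. Those 5 read HNRNPUL1, SNRPG, SF3B2, SF3B5 and U2AF2.

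The level of a gene was compared on the 6 brighter arrays, 3 of each time, where 13 of the 51 splicing genes could be tested. A gene entered if 1 of its probes was detected on all 3 before-calving or all 3 after-calving arrays, so those 13 are members detected consistently at 1 time and do not stand for the families. Levels are log2 background-subtracted intensities scaled within each array to the 75th percentile of 1111 probes detected on all 6, so a level of 0 equals that percentile and levels of different probes cannot be ranked. For the test, levels below a common floor of -3.54 were raised to it. That value is the lowest detected level on after-calving array 3, the array where it was highest. Differences are after minus before calving on the log2 scale.

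No splicing gene passed the threshold of an adjusted p of 0.05 by limma on these arrays. Of the 1954 features tested, 97 (4.96%) passed, 35 (1.79%) higher and 62 (3.17%) lower after calving. Among the 13 splicing genes 0 passed in either direction and 0 had an unadjusted p under 0.05. On floored levels 0 had arrays of the times that did not overlap, against 25.7% of all features with no overlap. Values at the floor tie, so a gene near the floor can hardly meet that count. Before flooring, SRSF7 did not overlap, with its lowest before-calving level at -4.21 and its highest after-calving level at -4.23. With 13 genes, a share of 4.96% would be less than 1 gene. Differences were positive for 4 of the 13 and negative for 8, against 55.7% negative among all features, and 1 (HNRNPM) lay at the floor on all 6 arrays. Their median difference was -0.19, against -0.07 over all tested features, whose 5th and 95th percentiles were -1.19 and 1.56. Within the times, the median SD was 0.31 for the splicing genes and 0.43 for all features. The floor lowers such an SD: it was 0 at both times for HNRNPM, and 0 after calving for SRSF7, SRSF11 and SF3A3. These medians therefore do not compare spread alone. When the floor was left out and only the 994 features detected on all 6 arrays were tested, 0 of 5 splicing genes passed by limma, against 3.62% of the features.

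**Figure D3:**
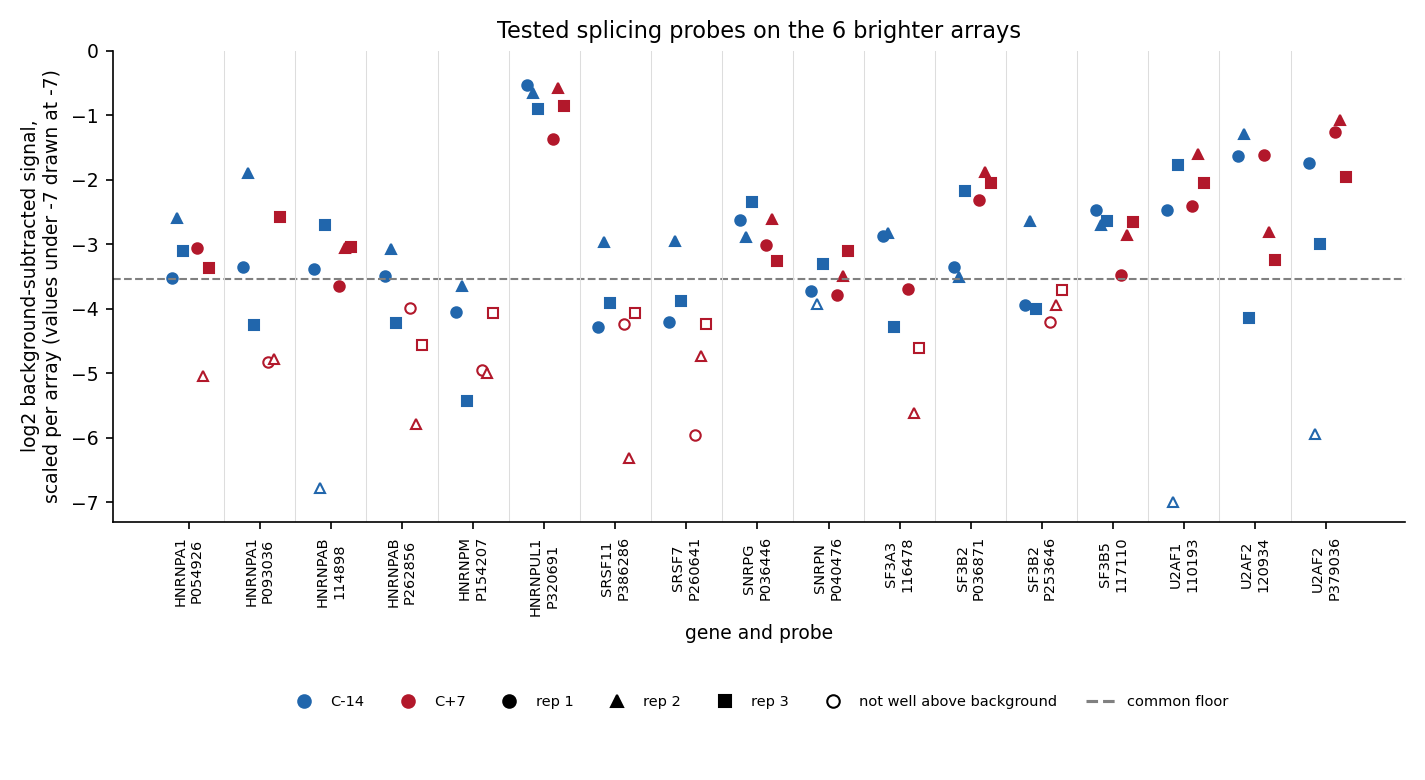
Scaled log2 background-subtracted signal (vertical axis) of the 17 tested splicing probes of 13 genes on the 6 brighter arrays; colour gives the time (blue C-14, red C+7), shape the replicate, and open symbols are not well above background. The dashed line is the common floor at -3.54; only HNRNPUL1 lies far above it on every array, and the after-calving points of HNRNPM, SRSF7 and SRSF11 are all open and below it.

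Among hnRNP genes, HNRNPUL1 had the clearest signal and was detected on all 6 arrays. This hnRNP U-like gene codes for a nuclear RNA-binding protein. Its levels were -0.54, -0.65 and -0.90 on the before-calving arrays 1 to 3 and -1.37, -0.57 and -0.86 on the after-calving arrays 1 to 3. After-calving array 1 was the lowest of all, and the other after-calving arrays lay within the before-calving range or its edge. The raw intensities were 378, 218 and 391 before calving and 109, 251 and 170 after, before any scaling. The scaled difference was -0.24 (SE 0.25, 95% interval -0.87 to 0.39; n = 3 arrays each; adjusted p = 0.629, limma). Without after-calving array 1 it was 0.01.

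HNRNPA1, an abundant hnRNP that shuttles between nucleus and cytoplasm, was read by 2 detected probes of 4. Probe A_73_P093036 was at -3.35, -1.89 and -4.25 before calving, all well above background, and at -4.82, -4.78 and -2.58 after, where array 3 alone was detected. Probe A_73_P054926 was at -3.52, -2.59 and -3.10 before and at -3.06, -5.05 and -3.37 after, with array 2 undetected. Both probes overlapped between the times. The floored differences were -0.29 (SE 0.55) for the first probe, which stands for the gene (adjusted p = 0.796, limma), and -0.25 (SE 0.28) for the second. Without before-calving array 2 the first probe was at 0.12. HNRNPA1 belongs to a gene with many processed copies in mammals, and whether copies contribute to either probe was not tested.

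HNRNPAB, an hnRNP A/B gene, had probes with opposite detection patterns. Probe A_73_114898 was at -3.38, -6.78 and -2.70 before calving, with array 2 undetected, and at -3.65, -3.06 and -3.04 after, detected on every array. Probe A_73_P262856 was at -3.50, -3.08 and -4.23 before, detected on all 3, and at -4.00, -5.78 and -4.56 after, detected on none. The first gave a difference of -0.01 (SE 0.29) and the second -0.17 (SE 0.16). Set against the lowest detected signal of each array, the second was at least 1.12-fold lower after calving, a limit that lies within the error of the difference. HNRNPM, an hnRNP that also regulates exon choice, was at -4.05, -3.65 and -5.43 before and -4.96, -5.00 and -4.06 after. It was detected on all 3 arrays before calving and none after, yet all 6 values lay under the common floor, so no fold is given.

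The other detected HNRNP genes had no probe on all arrays of a time. HNRNPC, HNRNPF and HNRNPA3 each had a probe detected on 3 of the 6 arrays. On after-calving array 3 these stood at -2.24, -1.81 and -2.57, the highest value of each probe on the 6 arrays. With the filter relaxed to detection on any 3 of the 6 arrays, their differences were 0.03 (SE 0.45), 0.41 (SE 0.55) and 0.38 (SE 0.28). None of the 20 splicing genes that this filter let in passed, against 3.46% of its 2398 features. HNRNPDL, HNRNPH1, HNRNPH2, HNRNPH3, HNRNPK, HNRNPR and HNRNPUL2 were detected on at most 2 arrays by any probe.

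SR protein genes that could be tested were SRSF7 and SRSF11, both close to the floor. SRSF7 was at -4.21, -2.95 and -3.88 on the before-calving arrays, all well above background, and at -5.95, -4.74 and -4.23 after, none of them so. SRSF11 was at -4.28, -2.97 and -3.90 before, all detected, and at -4.23, -6.32 and -4.06 after, none detected. In both genes before-calving array 2 was the one value above the common floor. The floored differences were -0.20 (SE 0.20, adjusted p = 0.623, limma) for SRSF7 and -0.19 (SE 0.19, adjusted p = 0.624) for SRSF11. Set against each array's lowest detected signal, SRSF7 was at least 1.05-fold and SRSF11 at least 1.03-fold lower after calving, limits that lie within the error of the difference. Without before-calving array 2 both floored differences were 0, and with the normexp background (0.74 and 0.76) and in the authors' deposited log2 table (0.56 and 0.28) both were positive without passing.

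SRSF3, the smallest SR protein, missed the filter. Its brighter probe was at -4.12, -6.58 and -3.10 before calving, with array 2 undetected, and at -4.33, -3.98 and -3.36 after, with array 3 alone detected. Its times overlapped, and its difference under the relaxed filter was -0.08 (SE 0.16). The remaining SRSF genes had no probe on more than 2 arrays, so the lean of the SRSF family in detection could not be followed as a difference in level.

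In the small nuclear ribonucleoprotein family SNRPG, an Sm core protein, was detected on all 6 arrays. Its levels were -2.62, -2.88 and -2.34 before calving and -3.01, -2.61 and -3.26 after. Arrays 1 and 3 after calving were below every before-calving array, and array 2 was not. The difference was -0.35 (SE 0.24, 95% interval -0.95 to 0.26; adjusted p = 0.473, limma). SNRPN, an Sm protein gene related to SNRPB, was at -3.72, -3.92 and -3.31 before, with array 2 undetected, and at -3.79, -3.49 and -3.10 after, for a floored difference of 0.09 (SE 0.17). SNRPD3, a further Sm gene, was detected on 1 array before and 2 after calving, with a difference of -0.07 (SE 0.09) under the relaxed filter, and SNRPD2 and SNRPE were detected on at most 2 arrays.

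Of the SF3A and SF3B genes tested, none passed. SF3B2, which contacts the branch point region, was read by probe A_73_P036871 at -3.35, -3.51 and -2.17 before calving and at -2.31, -1.88 and -2.05 after, detected on all 6 arrays. After-calving arrays 2 and 3 were above all before-calving arrays, while before-calving array 3 exceeded after-calving array 1. The difference was 0.93 (SE 0.40, 95% interval -0.08 to 1.95; adjusted p = 0.271, limma). Its second probe, A_73_P253646, was at -3.95, -2.65 and -4.01 before, all detected, and at -4.21, -3.94 and -3.72 after, none detected. That probe gave -0.30 (SE 0.28), or at least 1.17-fold lower after calving, a limit that lies within the error of the difference. Its levels overlapped between the times, and only before-calving array 2 lay above the common floor. The probes of SF3B2 thus differed in sign, and no direction is given for the gene.

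SF3A3, a subunit of the complex that joins the U2 particle, was at -2.87, -2.82 and -4.29 before calving, all detected. After calving it was at -3.69, -5.62 and -4.61, with array 1 alone detected. Before-calving arrays 1 and 2 stood apart from the rest, and array 3 lay among the after-calving values. With the floor the difference was -0.46 (SE 0.23, adjusted p = 0.323, limma). All after-calving values lay under the floor, which set their spread to 0, so the SE and p do not measure the spread of those arrays. SF3A3 met the filter through its before-calving detection alone. Without before-calving array 3 the difference was -0.71 and passed (adjusted p = 0.0485, limma), the one splicing gene that passed when any 1 array was left out. That fit kept only arrays 1 and 2 before calving, whose values lay close together, and the same limit of the floor holds for its p.

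SF3B5, a small subunit of the SF3B complex, was detected on all 6 arrays at -2.47, -2.70 and -2.63 before calving and -3.47, -2.86 and -2.66 after. Array 1 was the lowest after calving, and array 3 fell within the before-calving range. The difference was -0.40 (SE 0.24; adjusted p = 0.420, limma). SF3B1, the subunit that holds the branch point adenosine, was detected on 2 arrays of each time, and its difference under the relaxed filter was -0.41 (SE 0.49). SF3A2 stood at the floor on all 6 arrays, and SF3B4, which binds upstream of the branch point, was detected on 2 arrays.

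U2AF2 had the largest positive difference of the splicing genes, on 1 of its probes, and both U2AF genes had wide errors. U2AF1 codes for the small subunit, which reads the AG at the intron end. It was at -2.47 and -1.78 on before-calving arrays 1 and 3, was not above background on array 2, and was at -2.41, -1.60 and -2.06 after calving. The after-calving values lay within or near the range of before-calving arrays 1 and 3. The floored difference was 0.57 (SE 0.51; adjusted p = 0.591, limma), and without before-calving array 2 it was 0.04.

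U2AF2, whose product binds the polypyrimidine tract, was measured by 2 detected probes of 4. Probe A_73_P379036 was at -1.74, -5.95 and -3.00 before calving, with array 2 undetected, and at -1.25, -1.07 and -1.96 after, for a difference of 1.34 (SE 0.53, 95% interval -0.02 to 2.69; adjusted p = 0.246, limma). Probe A_73_120934 was at -1.64, -1.28 and -4.15 before and at -1.62, -2.81 and -3.24 after, detected on all 6 arrays, for a difference of -0.40 (SE 0.76). On the first probe before-calving array 1 overlapped the after-calving values, and without array 2 the difference was 0.89. On the second probe the 3 arrays of each time spanned overlapping ranges. The probes differed by more than 0.5 on the log2 scale and in sign, as for SF3B2.

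**Figure D4:**
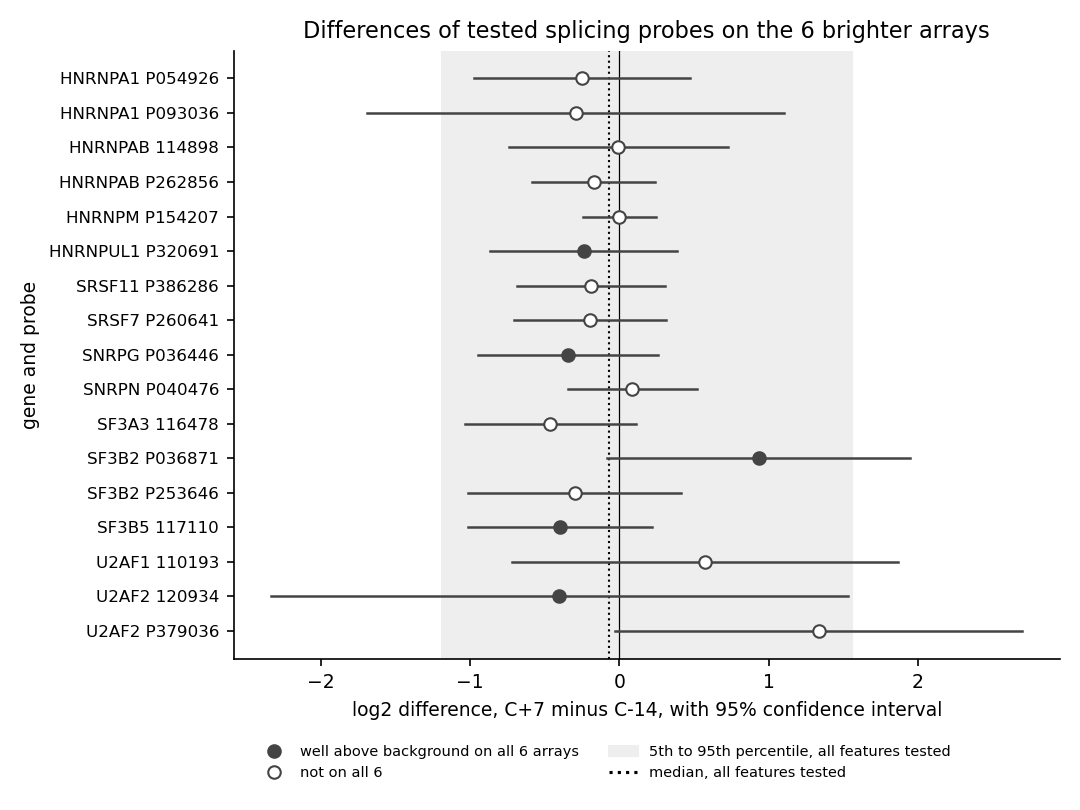
Log2 difference, C+7 minus C-14, of the 17 tested splicing probes (horizontal axis) with 95% confidence intervals from limma; filled points were detected on all 6 arrays, and grey shading spans the 5th to 95th percentile (-1.19 to 1.56) of 1954 features. Every interval includes 0, and the pairs of probes for SF3B2 and for U2AF2 lie on opposite sides of it.

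One array stood apart in several of these values. Before-calving array 2 was the only one of the 6 on which 4 splicing probes were missing while the other 5 arrays detected them (HNRNPAB, SNRPN, U2AF1 and U2AF2). Over the whole array 331 probes were missing there alone, against 10 to 105 on each other array. That array also had the lowest correlations with the other 5, at 0.69 to 0.79 over the 1111 shared probes. What sets it apart was not tested.

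The sign of the splicing genes as a group depended on how background and scale were handled, and the group moved together with all features. With normexp background correction, all 13 splicing genes were positive, with a median of 0.80 against 0.66 for all features. In the authors' deposited log2 table all 13 were again positive, with a median of 0.70 against 1.03. Scaling over all probes gave 2 positive and 11 negative, with a median of -0.62 against -0.58. The splicing median minus that of all features was 0.14 with normexp, -0.33 in the deposited table and -0.03 with scaling over all probes. No splicing gene passed in any of them.

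**Figure D5:**
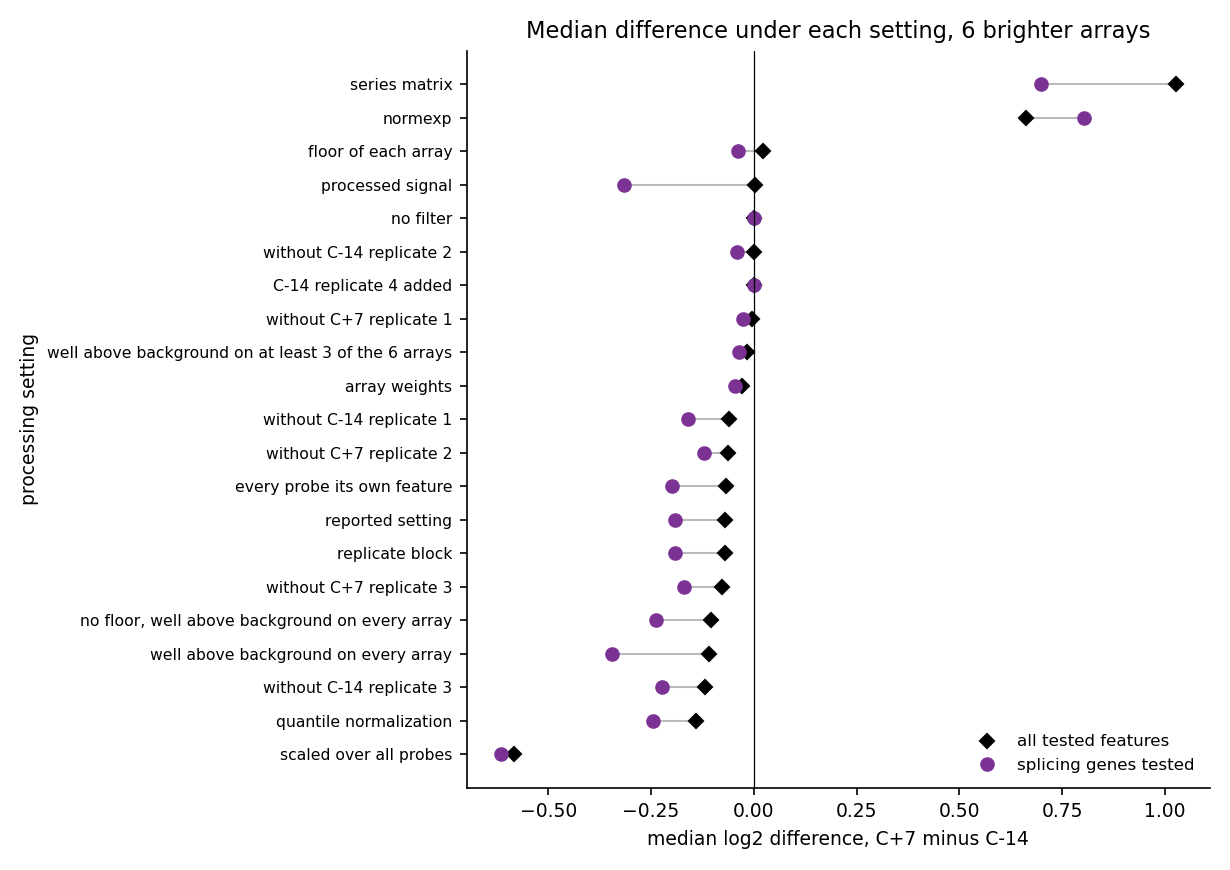
Median log2 difference, C+7 minus C-14, on the 6 brighter arrays (horizontal axis) under each processing setting (rows), purple circles for the splicing genes tested and black diamonds for all tested features. Both medians shift together, from -0.62 and -0.58 with scaling over all probes to 0.70 and 1.03 in the deposited series table.

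Over all 8 arrays a single splicing gene, U2AF2, could be tested. On scaled processed signal its probe A_73_120934 was at -2.66, -1.55, 1.40 and -1.42 before calving and at -2.93, -3.62, -3.83 and -1.72 after. The highest value was on before-calving array 3, the array with the surface correction, and the times overlapped. The difference was -1.97 (SE 1.11, 95% interval -4.21 to 0.27; n = 4 arrays each; adjusted p = 0.982, limma). Without before-calving array 3 it was -1.16, and on background-subtracted signal with all 8 arrays it was -0.13. Of 442 features tested 0 passed (0%), and 6 had an unadjusted p under 0.05. With array weights 11 features passed, none of them U2AF2.

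Other genes of the splicing machinery, from lists that exclude the members above, gave few calls. Of 62 core spliceosome genes, 54 had a probe, 29 were detected and 9 were tested on the 6 brighter arrays, with 0 passing, 3 positive and 5 negative (median -0.02). The highest and lowest of these were DHX8, a helicase that releases spliced RNA, at 1.56 (SE 0.66, adjusted p = 0.269) and PHF5A, which sits in the SF3B complex, at -0.76 (SE 0.26, adjusted p = 0.187), both by limma. Without before-calving array 2 DHX8 was at 0.92, and without before-calving array 1 at 2.22. PHF5A was at -3.27, -2.33 and -2.73 before calving and at or next to the floor on all 3 arrays after, so its arrays did not overlap. Of 24 genes for SR protein kinases and for the transport and assembly of these factors, only the kinase gene CLK3 was tested, at 0.10 (SE 0.55). Of 26 exon junction and export genes, EIF4A3, the helicase that anchors the junction complex, was at -0.98 (SE 0.44, adjusted p = 0.294), and the export adaptor ALYREF was at -0.18 (SE 0.18, adjusted p = 0.629).

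Among 56 other RNA-binding splicing regulators, 42 had a probe, 21 were detected and 6 were tested, and 1 of them passed. PCBP2, a poly(C)-binding protein that also stabilises messenger RNAs, was at -2.37, -2.16 and -2.35 before calving and at the floor on all 3 arrays after. Its 3 before-calving values were close together and all above the after-calving values. It fell by 1.25 on the log2 scale (SE 0.11, adjusted p = 0.0111, limma), or at least 2.75-fold set against each array's lowest detected signal. The floor set the after-calving spread to 0, so the SE and p do not measure the spread of those arrays. This probe entered the test through its before-calving detection alone. PCBP2 passed in 10 of 18 other settings. The call ended without after-calving array 2 (-1.23, adjusted p = 0.0736) and without after-calving array 3 (-1.45, adjusted p = 0.0789). It also ended with normexp (0.14), processed signal, no filter, the deposited table, before-calving replicate 4 added and the replicate block (adjusted p = 0.108). Another of its 4 probes, A_73_P392621, was detected on 1 array before and 3 after calving, so the fall belongs to probe A_73_P295066. NOVA1, known as a neuronal splicing regulator, had the highest difference of the list, at 1.64 (SE 1.15, adjusted p = 0.482), which was 0.34 without before-calving array 2 and 2.51 without before-calving array 1.

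Markers of some blood cell types differed between the times, and their part in the values above was not tested. The summed scaled signal of detected neutrophil markers was 12.1 to 25.3 before calving and 72.8 to 84.7 after, nearly all of it S100A12 (11.2 to 24.1 before and 69.0 to 82.6 after). Without S100A12 the sum was 0.90 to 1.18 before and 2.06 to 3.81 after. Of 7 neutrophil markers tested, 4 passed as higher after calving (S100A12, LTF, MMP9 and ALPL). The chemokine receptor genes CXCR1 and CXCR2 were at -1.27 and -0.08, and S100A9 at 0.69, and these did not pass. LTF, MMP9, ALPL and S100A9 were detected on no brighter array before calving, so they entered the test through after-calving detection alone. The floor set their before-calving spread to 0, so their p-values do not measure the spread of those arrays. The sum of T cell markers was 4.01 to 4.62 before and 1.02 to 1.25 after, with 8 of the 10 that have a probe detected, CD3D and CD2 not detected and no probe named for TRAC. The T cell markers did not move alike. Of the 4 tested, CD247 (-2.66) and CD3E (-2.03, at the floor on all 3 arrays after calving) passed as lower. LCK (-0.63) and CD4 (-0.13) did not pass. NK cell markers (2 of 7 with a probe detected) summed to 0.31 to 0.48 before and 0 to 0.08 after. Monocyte markers (3 of 6 with a probe) summed to 3.31 to 4.96 and 2.71 to 2.92, and the eosinophil marker ALOX15, detected as 1 of 2 with a probe, to 1.03 to 1.36 and 0.14 to 0.15. B cell markers (3 of 4 with a probe) at 0.35 to 1.12 and 0.44 to 0.86, and erythroid markers (3 of 6 with a probe) at 0.31 to 1.19 and 1.14 to 2.40, overlapped between the times. None of the 3 platelet markers with a probe was detected, and 1 of 3 basophil markers with a probe was detected on a single array after calving, at 0.11. No probe was named here for the other 3 platelet, 4 eosinophil, 2 B cell, 1 monocyte and 1 basophil markers.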

How the data were processed

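RNA of 4 arrays per time point was read on single-colour Agilent arrays. The deposited scanner files give spot intensity, background-subtracted and processed, from Agilent Feature Extraction (10.10.1.1 per the file headers, 9.1 per the submitters' processing notes). The deposited series table holds log2 values of the same arrays (43711 rows, lowest correlation with the scanner values 0.999). Its column medians lay between -2.61 and 0.03. Those values behave as log2 intensity less each array's 75th percentile and centred per probe, running in the same direction as the scanner values, though no header states so.

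Control spots were left out. Outlier spots were left out of the signals, and spots of a probe averaged, but the detection calls kept outlier spots. Probes were named through a RefSeq gene table of assembly ARS-UCD2.0, which named 26832 and left 16821 without a symbol. A probe counted as well above background where over 0.5 of its spots were called so. A feature was a gene, by its brightest probe among those detected on each before-calving or each after-calving array, or an unnamed probe that was. Features with a missing value were left out. In the alternatives, genes named in the text kept their probe where it passed the filter. The 8-array comparison used processed signal scaled to the 75th percentile of the 118 probes detected on all arrays. The 6-array comparison used arrays with over 2000 probes detected, background-subtracted signal and a common floor. Both were fitted with limma 3.58.1 in R 4.3.3 (two-sided, Benjamini-Hochberg over all features, adjusted p 0.05), after the fit was tested on simulated data. An "at least N-fold" value is the brighter time point's mean over a mean of, on each dim array, the probe's own signal or the lowest detected signal, whichever is higher. The normexp alternative (offset 50) used median spot signals.

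Members, lists, the 6-array choice and its floor were chosen with earlier results of these data known. Members were named where they passed the threshold, where they had their family's highest level or extreme difference, where they were detected on all 8 arrays, or where their probes differed by over 0.5. List genes were named where they passed or were extreme. Further members were named to account for all 51, after their values were seen. No cow or slide term could be fitted.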

Additional observations from a re-analysis of the deposited data

Results flagged for a closer look

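After-calving replicate 4 stood apart from the other after-calving arrays in 2 of the 16 sets of 4 arrays examined for the share of probes well above background. Its share of SNRP probes was 0% against 11.5% on each of the other 3 arrays, and its share of U2AF probes was 14.3% against 42.9%. For normally distributed values chance alone marks about 1 set in 20. That rate does not hold here, since the other 3 arrays were tied and any different value is then marked. On this array 0.893% of all probes were detected, the lowest share of the 8.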

How the results depend on the processing

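The absence of splicing genes past the threshold held in every setting run on 8 and on 6 arrays, except without before-calving replicate 3 on 6 arrays (SF3A3; 0 to 1 gene over the arrays left out). The median difference of the splicing genes on 6 arrays, -0.19, moved to 0.80 (normexp), -0.62 (scaled over all probes) and 0.70 (series table), and ranged from -0.22 to -0.03 with 1 array left out. On 8 arrays it rests on U2AF2 (-1.97) and moved to -0.13 (background-subtracted signal with a floor), 0.23 (normexp) and -0.11 (no filter, 51 genes), and ranged from -2.15 to 0.058 with 1 array left out, where up to 11 genes were tested.

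The 97 features past the threshold on 6 arrays became 10 with processed signal, 47 with normexp (44 higher), 2 without a filter, 46 with detection on every array, 36 with that filter and no floor, 5 in the series table, 163 with array weights, 8 with before-calving replicate 4 added, and 6 to 129 with 1 array left out. They stayed at 99 (13 higher and 86 lower) scaled over all probes, 112 with quantile normalization, 112 with each probe apart, 83 with detection on any 3 arrays and 89 (47 higher and 42 lower) with each array's own floor. On 8 arrays 0 became 1 without a filter, 11 with array weights and 0 to 1 with 1 array left out. PCBP2 was at 0.14 with normexp. Filters on 3 arrays, other floors and the equal number of brightest probes were chosen after seeing the data.

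The replicate numbers were not taken to pair the arrays. Deviations of same-numbered arrays correlated at 0.08, -0.26 and 0.26 on 6 arrays, none best with its own number, and at 0.60, 0.23, -0.30 and 0.46 on 8, where replicates 1 and 4 did correlate best with their own. With the replicate block 0 features passed on 6 arrays, and the splicing median stayed at -0.19. A slide block could not be fitted, since each time point lay on 1 slide. Most splicing probes lay near background, which limits any fold to a bound.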
